A study of Mus musculus with 6 samples.

Results

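The Notch ligand, receptor and target genes described here are 10 genes of the Notch pathway among 19938 measured on Affymetrix arrays. The cells were 4T1, an established line from a mouse mammary carcinoma. They were the ligand genes Dll4, Jag1 and Jag2, the receptor genes Notch1, Notch2 and Notch3, the receptor-modifying gene Lfng, and the target genes Hes1, Hey1 and Nrarp. The list was drawn up by name, with earlier results of these data known, so its counts describe these genes and do not stand as independent evidence. All 10 were measured, each by 1 probe set that carries its symbol alone. Cells were seeded at 750000 per 10 cm dish in DMEM with 10% FCS, left for 24 h, and then kept for 16 h in fresh medium holding either 500 nM TKI258 or the vehicle DMSO. TKI258, also called dovitinib, is an inhibitor of receptor tyrosine kinases that include the FGF, VEGF and PDGF receptors. The groups were 3 DMSO dishes and 3 TKI258 dishes, each on its own array. All 6 came from a single cell line grown in culture, without the blood vessels and stroma of a tumour. The comparison asks how the transcripts of this pathway differ after the inhibitor.

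Notch signalling runs between touching cells. A ligand of the Delta or Jagged family on one cell binds a Notch receptor on its neighbour, the receptor is cut by an ADAM protease and then by gamma-secretase, and its freed intracellular part enters the nucleus. There it joins the DNA-binding protein RBPJ and a Mastermind coactivator and switches on target genes of the Hes and Hey repressor families and Nrarp, whose product dampens the signal. Fringe enzymes such as Lfng add sugars to the receptor and thereby change how it answers Delta and Jagged ligands. Dll4 is best known from endothelium, where VEGF signalling induces it, and in the mammary gland Notch takes part in luminal cell fate.

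After TKI258, 4 of the 10 genes rose, namely Notch1, Notch2, Lfng and Jag1, and 3 fell, namely Nrarp, Dll4 and Hes1. Jag2, Notch3 and Hey1 did not pass the test. A gene was called when limma's two-sided moderated test gave a Benjamini-Hochberg adjusted p below 0.05 over all genes. By this rule 27.0% of all genes were called, 14.4% higher and 12.6% lower. These shares include dim genes, while each of the 10 genes had a mean above the median of all probe sets. The DMSO and TKI258 arrays did not overlap in 9 of the 10 genes, all but Jag2, against 40.2% of all genes. The median log2 change was 0.20 over the 10 genes and 0.015 over all genes. Values are log2 signals, changes are TKI258 minus DMSO on the log2 scale, and n = 3 arrays per group throughout.

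**Figure D1:**
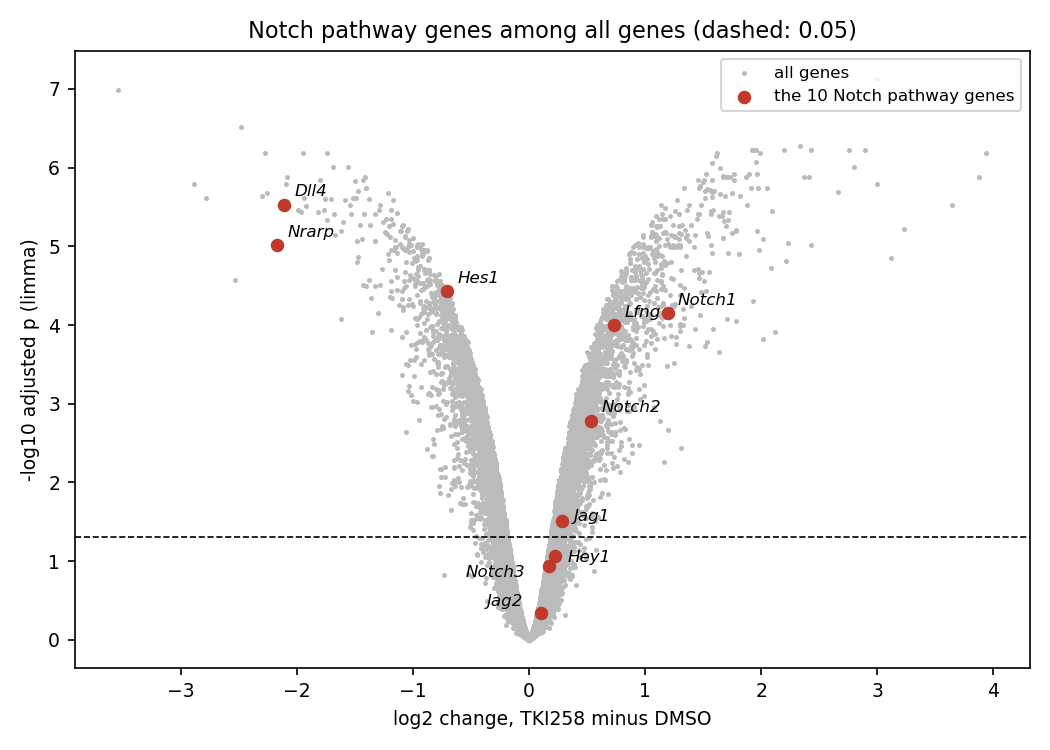
Each grey point is 1 of 19938 genes and each red point 1 of the 10 Notch pathway genes, with the log2 change (TKI258 minus DMSO) on the x axis and the negative log10 of limma's adjusted p on the y axis. Nrarp and Dll4 lie far to the left, at -2.17 and -2.11, Notch1 lies furthest right of the 10 at 1.19, and Jag2, Notch3 and Hey1 lie under the dashed line at 0.05.

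The arrays resembled each other closely, with correlations over all genes of 0.997 to 0.998 within a group and 0.988 to 0.990 between groups, and array medians of 4.97 to 5.04. Markers of mammary epithelium, the labelled origin, lay above the median of all probe sets in 9 of 10 cases. Their mean level was 8.05 to 8.15 on the DMSO arrays and 8.38 to 8.52 on the TKI258 arrays. Of these markers 5 were higher and 2 lower, where 14.4% and 12.6% of all genes were. Krt14 rose by 1.79, Cdh1 by 1.09, Krt19 by 0.94, Cldn4 by 0.89 and Cldn3 by 0.24. Krt18 fell by 0.50 and Krt7 by 0.39, and Epcam, Krt8 and Krt5 were not called. Endothelial markers, of interest because Dll4 is known from that tissue, were called in 0 of 11 cases, and 9 of the 11 lay below the median probe set. Their mean level was 4.37 to 4.42 with DMSO and 4.36 to 4.41 with TKI258, and the defining genes Pecam1 and Cdh5 had DMSO means of 3.70 and 3.67. The exceptions above the median were the VEGF receptor gene Flt1, at 7.84 with DMSO and 8.01 with TKI258, and the claudin gene Cldn5, at 5.31 and 5.38, neither of them called. Of 8 macrophage markers Cd68 rose by 0.82 and Cd14 by 0.74, Fcer1g fell by 0.33 and 5 were not called. That is 37.5% called against 27.0% of all genes, with a median log2 change of 0.041. The mean level of that list was 4.37 to 4.40 with DMSO and 4.46 to 4.63 with TKI258. Of 7 fibroblast markers Dcn rose by 2.01 and Pdgfra by 1.5 and 5 were not called, which is 28.6% called against 27.0% of all genes, with a median of 0.16. Their mean level was 5.17 to 5.26 with DMSO and 5.77 to 5.79 with TKI258. The part of the epithelial, macrophage and fibroblast lists in the changes of the Notch genes was not tested. In such bulk RNA, fewer cells expressing a gene and less RNA per cell cannot be told apart.

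Promoter sequences are shown for Dll4 and Nrarp, which fell together, and for Lfng, which rose. RefSeq entries (GRCm38.p6) matched 8 of the 10 genes, the others being Hes1 and Hey1. The 250 bases before the annotated start were searched on both strands for TGGGAA, the core that RBPJ binds, CACGTG, an E-box that Hes and Hey repressors and other factors can bind, TGANTCA, the AP-1 site, and CCGGAA, the core of ETS sites. Capitals mark the matches, and all 3 genes are read from the plus strand, at chr2:119325534-119325783 for Dll4, chr2:25180508-25180757 for Nrarp and chr5:140607091-140607340 for Lfng.
Dll4: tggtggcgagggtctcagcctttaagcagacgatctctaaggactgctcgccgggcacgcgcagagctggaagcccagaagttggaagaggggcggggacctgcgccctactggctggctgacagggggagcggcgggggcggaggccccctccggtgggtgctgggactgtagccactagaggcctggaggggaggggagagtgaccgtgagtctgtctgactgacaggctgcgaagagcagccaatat
Nrarp: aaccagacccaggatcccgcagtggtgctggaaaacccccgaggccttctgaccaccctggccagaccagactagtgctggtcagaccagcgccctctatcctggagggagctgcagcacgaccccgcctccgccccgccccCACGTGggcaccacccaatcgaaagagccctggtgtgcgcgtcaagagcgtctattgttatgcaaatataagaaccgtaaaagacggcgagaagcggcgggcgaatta
Lfng: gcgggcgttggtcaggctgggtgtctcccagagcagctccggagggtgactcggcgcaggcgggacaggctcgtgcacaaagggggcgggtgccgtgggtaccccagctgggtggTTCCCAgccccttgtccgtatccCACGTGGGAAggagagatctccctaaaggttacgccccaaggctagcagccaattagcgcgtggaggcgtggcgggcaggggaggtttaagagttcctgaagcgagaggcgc
The Lfng window held 2 matches to the RBPJ core, one of them on the opposite strand. The other overlapped an E-box in the stretch CACGTGGGAA. The Nrarp window held 1 E-box, and the Dll4 window held 0 matches to any of the 4 motifs. Of the 8 genes Lfng alone had the RBPJ core, Lfng and Nrarp had the E-box, and 0 had the AP-1 or ETS letters in this window. Among 32851 RefSeq promoters of the same length, 21.6% held the RBPJ core, 6.02% the E-box, 6.75% the AP-1 site and 12% the ETS core. A match is a run of letters in a short window and does not show that a factor binds there.

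Among the ligands, Dll4 fell steeply while Jag1 rose slightly. Dll4 had log2 signals of 7.13, 7.10 and 7.38 on the DMSO arrays and 5.21, 4.88 and 5.20 on the TKI258 arrays. The lowest DMSO value lay far above the highest TKI258 value, and replicate 2 was the lowest of the treated dishes. The group means were 7.20 ± 0.15 (SD, n = 3) and 5.09 ± 0.18. Dll4 thus fell by 2.11 (SE 0.11, limma adjusted p = 2.97e-06), which is 4.32-fold. This was the 10th largest fall among all 19938 genes. The treated level was close to 5.01, the median of all probe sets, where array signals are dim and changes tend to be understated.

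Jag1, a Jagged ligand that is also widely expressed outside vessels, had values of 7.77, 7.78 and 7.60 with DMSO and 7.92, 8.12 and 7.94 with TKI258. The groups did not overlap, although the gap between them was small beside the change of Dll4. Jag1 rose by 0.28 (SE 0.08, limma adjusted p = 0.0306). The call was lost without any one of the 3 DMSO replicates, at adjusted p of 0.0573, 0.0504 and 0.114 for numbers 1 to 3, and without TKI258 replicate 2, at 0.101. The adjusted p lay in a range of 0.0125 to 0.999999 over 15 alternatives, the highest from limma's treat. Jag2, the other Jagged ligand, had values of 5.34, 5.48 and 5.42 with DMSO and 5.70, 5.45 and 5.41 with TKI258. Only TKI258 replicate 1 lay above all the DMSO arrays. Its log2 change was 0.11, with a 95% interval of -0.092 to 0.30 (adjusted p = 0.451).

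The receptor genes were higher or not called. Notch1 had log2 signals of 7.71, 7.45 and 7.34 on the DMSO arrays and 8.76, 8.82 and 8.50 on the TKI258 arrays. Every treated array lay above every control array. The group means were 7.50 ± 0.19 (SD, n = 3) and 8.69 ± 0.17. Notch1 rose by 1.19 (SE 0.11, limma adjusted p = 7.13e-05), or 2.29-fold, and ranked 174th among rises. Notch2 had values of 8.84, 8.86 and 8.62 with DMSO and 9.28, 9.42 and 9.21 with TKI258. It also showed no overlap between groups and rose by 0.53 (SE 0.09, limma adjusted p = 0.00164), or 1.45-fold. Its call was lost against a minimum fold of 1.2 in limma's treat, at an adjusted p of 0.0639, the highest of 15 alternatives that began at 8.23e-05.

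Notch3, a receptor that is itself a target of Notch signalling in some cells, had values of 5.36, 5.29 and 5.47 with DMSO and 5.50, 5.51 and 5.61 with TKI258. The groups lay next to each other without overlap. The log2 change was 0.17 with a 95% interval of 0.011 to 0.33, and the adjusted p was 0.117, so Notch3 was not called. Both groups were dim, with means of 5.37 and 5.54.

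**Figure D2:**
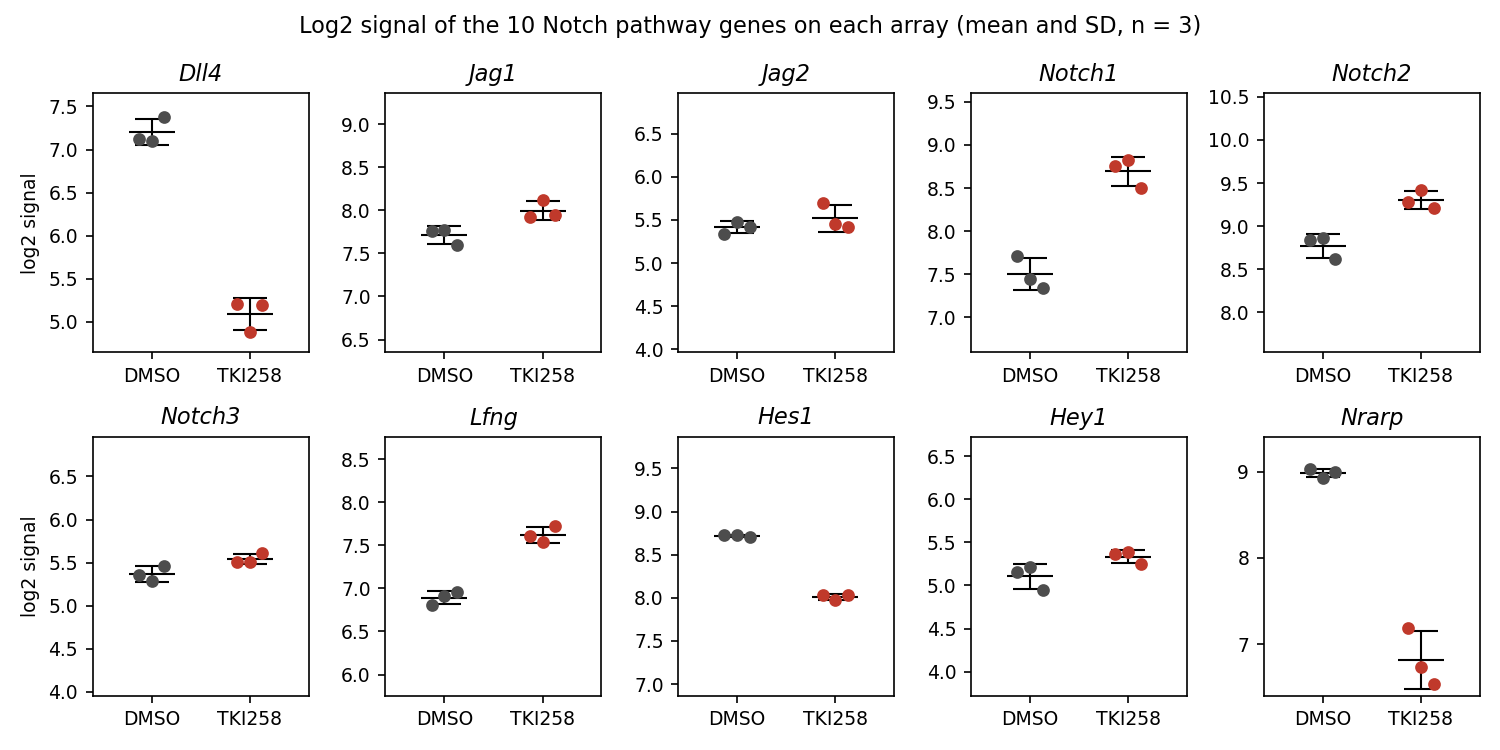
Log2 signals of the 10 genes on each array, with DMSO in grey and TKI258 in red. Points are single arrays, the horizontal bar is the mean and the whiskers are the SD of 3 arrays, and every panel spans 3 log2 units around the gene's own mean. Dll4, Nrarp and Hes1 show the red points below the grey ones, Notch1, Notch2, Lfng and Jag1 above them, and Jag2 alone shows overlap.

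Lfng, which encodes the lunatic fringe glycosyltransferase that acts on Notch receptors in the Golgi, rose together with Notch1 and Notch2. Its values were 6.81, 6.91 and 6.96 with DMSO and 7.60, 7.54 and 7.72 with TKI258. The spread within each group was small beside the distance between them. The group means were 6.89 ± 0.08 (SD, n = 3) and 7.62 ± 0.09, and the rise was 0.73 (SE 0.07, limma adjusted p = 9.96e-05), or 1.66-fold. This is the gene whose promoter, printed above, holds the RBPJ core.

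Of the target genes Nrarp and Hes1 fell, and Hey1 was not called. Nrarp, a short ankyrin-repeat protein that binds the Notch complex and limits it, had log2 signals of 9.03, 8.93 and 8.99 on the DMSO arrays and 7.19, 6.73 and 6.54 on the TKI258 arrays. The control dishes were nearly equal, while the treated dishes were spread more widely. The group means were 8.99 ± 0.05 (SD, n = 3) and 6.82 ± 0.33, and the log2 change was -2.17 (SE 0.14, limma adjusted p = 9.68e-06), or 4.49-fold. This was the 9th largest fall of all genes, next to Dll4 in that order.

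Hes1, the repressor most often used as a readout of Notch activity and also induced by other pathways, had values of 8.72, 8.73 and 8.70 with DMSO and 8.03, 7.97 and 8.03 with TKI258. These were the tightest groups of the 10 genes, with SDs of 0.012 and 0.033. Hes1 fell by 0.71 on the log2 scale (SE 0.06, limma adjusted p = 3.69e-05), or 1.63-fold. Hey1, a related repressor, had values of 5.16, 5.22 and 4.95 with DMSO and 5.37, 5.39 and 5.24 with TKI258. Here the treated arrays were the higher ones, by a narrow margin over DMSO replicate 2. Its log2 change was 0.23 with a 95% interval of 0.033 to 0.42, and it was not called (limma adjusted p = 0.0852). Both groups of Hey1 were dim, with means of 5.11 and 5.34. With only genes brighter than the median probe set tested, Hey1 passed at an adjusted p of 0.0405, in a range of 0.0405 to 0.999999 over 15 alternatives.

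**Figure D3:**
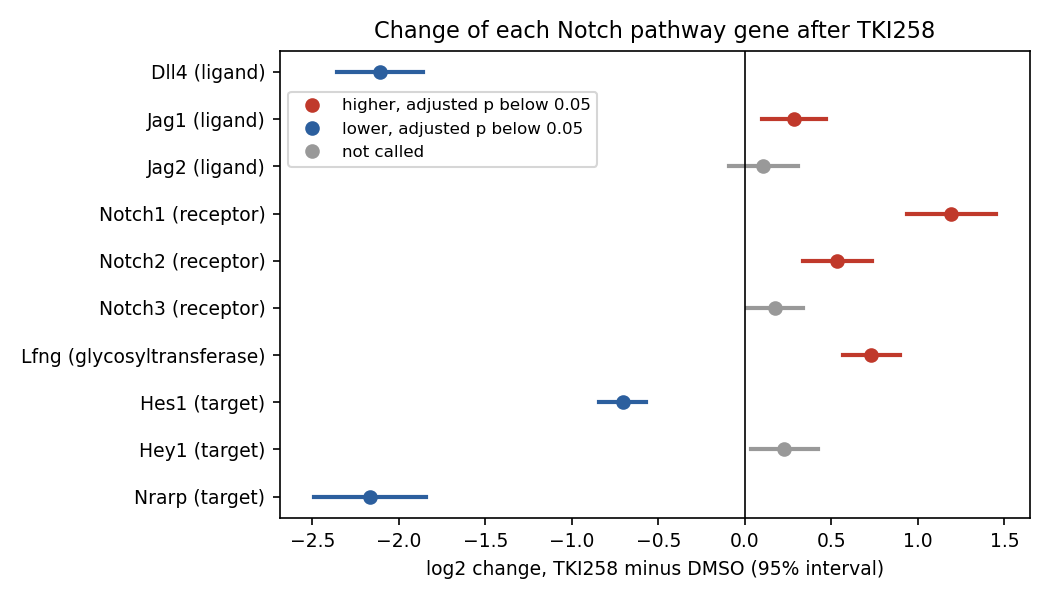
Log2 change (TKI258 minus DMSO, x axis) of each of the 10 genes with its 95% interval from limma, in the order ligands, receptors, Lfng and targets. Blue genes were lower and red genes higher at an adjusted p below 0.05, and grey genes were not called. The intervals of Dll4, -2.36 to -1.86, and Nrarp, -2.49 to -1.84, overlap each other and lie apart from those of the other 8 genes.

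Differences between 2 genes of a class were computed within each array for 4 pairs, chosen after the values were seen. The log2 signal of Dll4 minus that of Jag1 changed by -2.39, from -0.51 ± 0.25 (SD, n = 3) to -2.90 ± 0.29. Notch1 minus Notch2 changed by 0.66, from -1.27 ± 0.14 (SD, n = 3) to -0.61 ± 0.09. Hes1 minus Hey1 changed by -0.94, and Nrarp minus Hes1 by -1.46. An exact two-sided permutation test over the arrays gave p = 0.1 for each pair, the smallest value that 3 against 3 arrays allow. That test could not reach 0.05, so the differences are descriptions. They do not give the relative abundance of the transcripts.

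The rest of the pathway was followed in a list of 75 genes that includes the 10. Of its 71 measured genes 25 were higher, 11 lower and 35 not called, or 50.7% called against 27.0% of all genes. The 27.0% includes dim genes. With only genes brighter than the median probe set tested, more genes were called, 3040 higher and 2817 lower, with 29 higher and 11 lower in the list. The share called among genes as bright as the list was not computed. Without the 10 genes, 21 of 61 were higher and 8 lower (47.5%), with a median log2 change of 0.052. Leaving out TKI258 replicate 2, or either of DMSO replicates 1 and 2, reduced the 11 lower calls to 7 each time.

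Among the other ligand genes the Delta ligand gene Dll1 went opposite to Dll4. It rose by 0.65 (SE 0.13, limma adjusted p = 0.00606), from 6.08 ± 0.21 (SD, n = 3) to 6.73 ± 0.23. Dlk2, a Delta-like protein without the ligand domain that activates Notch, rose by 0.49. Dll3, a Delta ligand that does not activate receptors on neighbouring cells, had a log2 change of -0.11 and was not called, and Dlk1 had 0.042, with a sign that turned in 2 of 15 alternatives. The fourth receptor gene, Notch4, was dim and not called, at -0.13.

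Of 5 genes for sugar modification of the receptor, Lfng rose and Pofut1 fell, or 40% called against 27.0% of all genes. Pofut1, which adds the O-fucose that fringe enzymes extend, fell by 0.21 (limma adjusted p = 0.0358). This call was lost when any array except TKI258 replicate 3 was left out, and its adjusted p ranged from 0.0117 to 0.999999 over 15 alternatives. The remaining fringe genes, Mfng and Rfng, had log2 changes of -0.13 and 0.14 and were not called.

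Genes for ligand endocytosis and receptor turnover were higher in 6 of 15 cases, where 14.4% of all genes were, and lower in 1, where 12.6% were. Of the Deltex family, ubiquitin ligases of which some act on Notch, Dtx4 rose by 0.89 (SE 0.07, limma adjusted p = 3.47e-05), Dtx3l by 0.75 and Dtx3 by 0.52. Dtx1 and Dtx2 had log2 changes of -0.065 and 0.029 and were not called, and the sign for Dtx2 turned in 3 of 15 alternatives. Mib2, a ubiquitin ligase that drives ligand uptake, rose by 0.62, the Numb relative Numbl by 0.52 and the ubiquitin ligase gene Nedd4 by 0.31. Fbxw7, whose product marks the intracellular part of Notch for destruction, fell by 0.29 (limma adjusted p = 0.0217). Leaving out TKI258 replicate 2, or either of DMSO replicates 1 and 2, ended the call of Fbxw7, whose adjusted p ranged from 0.00846 to 0.999999 over 15 alternatives. Its other probe set had a log2 change of 0.0064.

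Genes for the proteases that cut Notch, counted together with genes for the subunits of gamma-secretase, were higher in 5 of 9 measured cases. They were lower in 1, against 14.4% and 12.6% of all genes. Adam10, the protease that makes the ligand-dependent cut, rose by 0.67 (SE 0.06, limma adjusted p = 7.31e-05), with group means of 9.68 ± 0.05 (SD, n = 3) and 10.34 ± 0.05. Adam17, a relative that can also cut Notch, went the other way at -0.22 (adjusted p = 0.0258). The gamma-secretase subunit genes Aph1b, Ncstn and Aph1a rose by 0.62, 0.30 and 0.26, and Furin, which cuts the receptor on its way to the surface, by 0.20. Aph1c, a close copy of Aph1b in the mouse, had a log2 change of 0.034 and was not called, and how far the probes of each read the other was not tested. The sign for Aph1c turned in 3 of 15 alternatives. Calls were lost for Adam17 when any array except TKI258 replicate 1 was left out and for Furin when any except TKI258 replicate 3 was left out. Aph1a lost its call without TKI258 replicate 3 and without either of DMSO replicates 1 and 2.

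**Figure D4:**
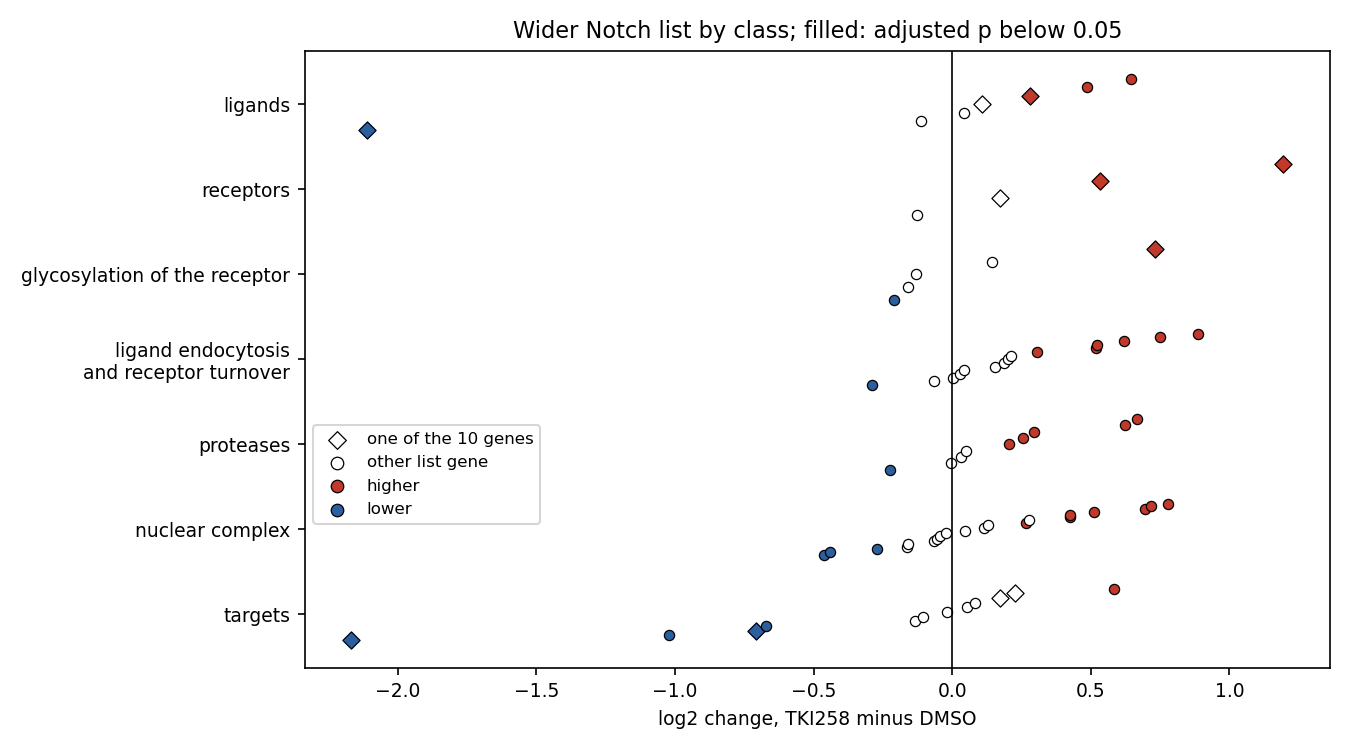
Log2 change (TKI258 minus DMSO, x axis) of the 71 measured list genes by class, with Notch3 drawn in both classes it belongs to. Diamonds are the 10 genes, circles the other list genes, and filled symbols passed an adjusted p below 0.05, red for higher and blue for lower. The largest falls are Nrarp and Dll4, and the classes other than targets hold more red than blue symbols except the sugar-modification class, with 1 of each.

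In the nuclear complex 7 of 20 measured genes were higher and 3 lower, the latter a share near the 12.6% of all genes that were lower, while 14.4% were higher. Rbpj, the DNA-binding core, had a log2 change of -0.16 and was not called (adjusted p = 0.16). It passed with eBayes trend and robust settings, at 0.0478, the lowest adjusted p of 15 alternatives that reached 0.999999. The acetyltransferase gene Kat2b rose by 0.78 (SE 0.07, limma adjusted p = 6.88e-05) and the coactivator gene Maml2 by 0.27. The Groucho-type corepressor genes Tle3, Tle2 and Tle4 rose by 0.72, 0.70 and 0.42, while Tle1 fell by 0.27. Cir1, a corepressor partner of RBPJ, rose by 0.51, and the histone demethylase gene Kdm5a by 0.42. Cdk8 and its cyclin gene Ccnc, whose products phosphorylate the Notch intracellular part and so promote its turnover, fell by 0.46 and 0.44. Maml2 lost its call without DMSO replicates 1 or 3 and without TKI258 replicates 1 or 2, and Tle1 when any array except TKI258 replicate 1 was left out.

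Of 12 measured target genes 4 were lower and 1 higher, beside 12.6% and 14.4% of all genes. Besides Nrarp and Hes1, Ccnd1, the cyclin D1 gene, fell by 1.02 (SE 0.07, limma adjusted p = 9.54e-06) and Myc by 0.67 (SE 0.06, limma adjusted p = 6.13e-05). Both are targets of many growth signals besides Notch. Gata3, a luminal transcription factor gene, rose by 0.58. The Hes and Hey relatives Hes5, Heyl and Hey2 had log2 changes of 0.082, 0.052 and -0.017 and were not called. Heyl and Hey2 were dim, with DMSO means of 5.02 and 3.38, while Hes5 had 6.60. A change in genes that dim could go unseen on these arrays. The sign for Hey2 turned without TKI258 replicate 2, and that for Heyl without DMSO replicate 1 or TKI258 replicate 3.

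For each called gene the 3 most similar profiles were found as the smallest root mean square distance over the 6 arrays, after each gene was centred on its DMSO mean. For Dll4 these were Fam110c at a distance of 0.11 log2 units, the ETS factor gene Etv4 at 0.12 and the lipase gene Lipg at 0.12. Nrarp lay nearest to Etv4 at 0.13, the E-selectin gene Sele at 0.15 and the pentraxin gene Nptx1 at 0.16. Etv4, with a log2 change of -2.09, was thus among the nearest to both. Notch1 lay nearest to the retinoblastoma gene Rb1 at 0.09, Zbtb20 at 0.09 and Tcp11l1 at 0.10. Distances were shorter for the genes that changed less, where many profiles are alike. They were 0.024 to 0.030 for Lfng (Slc49a4, Galk2 and Pnpla2), 0.030 to 0.037 for Notch2 (Bcas3, Fn1 and Map2), 0.031 to 0.040 for Jag1 (Zfp827, Gm5142 and Mtor), and 0.033 to 0.035 for Hes1 (Urb2, Cenpi and Exosc8). With 2 groups, such likeness mainly means a like log2 change.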

How the data were processed

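RNA from 6 dishes of 4T1 cells was amplified, biotin-labelled and hybridised to Affymetrix arrays, per the labels' protocols. The deposited log2 values cover 35557 probe sets on each array. The submitters' processing notes name the tools RMA, affy and limma, with neither versions nor roles. The log2 scale was read from the range of the deposited values, since the sources used here do not give it. RMA as usually run equalises array distributions and shrinks changes of dim probe sets. Detection calls are not part of the table, and precision is limited by the number of arrays.

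Gene symbols came from a platform annotation dated 2016. Of the probe sets, 21789 had 1 symbol and were used, 1621 had several and 12147 had none. The brightest probe set per gene over all 6 arrays gave 19938 genes. The comparison used limma 3.58.1 in R 4.3.3 (lmFit, eBayes, treatment as the only term, two-sided, Benjamini-Hochberg over all genes, threshold 0.05, no filter). SE and 95% intervals come from that fit. Groups came from the sample titles, which call the samples biological replicates.

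Genes named were the 10, each list gene past the threshold, 10 further pathway genes whatever their result, and the 3 nearest profiles of each called gene. Any other gene is named with its values already known. The 10 genes and the lists were chosen with earlier results of these data known. List genes beyond the 71 measured were not analysed here. Other settings tried were a block for the replicate number, leaving out each array, quantile normalization run again, centring on array medians, dropping dim genes, averaging probe sets per gene, array weights, eBayes with trend and robust settings, a threshold of 0.01, and treat against a fold of 1.2.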

Additional observations from a re-analysis of the deposited data

How the results depend on the processing

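Over the 15 alternatives, 7 of the 10 Notch genes kept their direction and their side of the threshold in all. Of 150 combinations of gene and alternative 140 did so, 8 lost a call, 2 gained one and 0 turned in sign. For the 41 other list genes named it was 540 of 611, with 59 lost, 1 gained and 11 turned in sign, all in genes not called. The log2 changes of the 10 genes were fixed with the replicate block, dropping dim genes and averaging probe sets. They were also fixed with trend and robust settings, the 0.01 threshold and treat. No sign could turn in those runs, and no gene could gain a call at 0.01 or in treat. The 3 lower calls of Dll4, Nrarp and Hes1 held in each alternative run. Against a minimum fold of 1.2, calls over all genes dropped to 1057 higher and 864 lower, those of the 10 genes to 2 higher, and those of the wider list to 14 higher and 5 lower. Jag1 at 0.28 and Notch2 at 0.53 were then not called. At a threshold of 0.01 Jag1, at 0.28, was not called and the wider list had 7 lower calls. With quantile normalization repeated, Jag1 had 0.26 and was not called. With the median probe set filter Hey1, at 0.23, passed the threshold. Fewer genes were then tested, and the refitted SE was 0.081 in place of 0.086. Leaving out 1 array gave Jag1 changes of 0.22 to 0.32 and 7 to 10 lower calls in the wider list. It also gave -0.054 to 0.052 for Hey2, above 0 without TKI258 replicate 2, and -0.021 to 0.12 for Heyl, below 0 without DMSO replicate 1 and, at -0.0062, without TKI258 replicate 3. The range was -0.072 to 0.18 for Dlk1, -0.027 to 0.081 for Dtx2 and -0.033 to 0.15 for Aph1c, and with quantile normalization repeated these 3 had -0.0010, -0.022 and -0.012. Dtx2 had -0.0085 with array weights. Where no value shows it, the cause was not tested.

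With the replicate number as a block, Hey1 was called at 0.23 (adjusted p = 0.0407 in limma), Furin was not called (adjusted p = 0.0601), and 2877 genes were higher and 2487 lower. For DMSO and TKI258 samples of the same number, 1 to 3, deviations from the group means correlated at 0.0181, 0.0501 and 0.151 over genes. Pairs of unlike number had -0.113 to 0.0727. Whether samples of the same number shared more than that number was not tested.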

Other observations

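Outside the gene-level comparison, 8 probe sets carry the symbol of a wider-list gene beside other symbols. When all probe sets were tested singly in limma, 1 of the 8 passed. It had log2 signals of 8.03, 8.09 and 8.16 on the DMSO arrays and 6.79, 6.65 and 6.95 on the TKI258 arrays, a log2 change of -1.30 (SE 0.09, adjusted p = 0.000575). It carries 2 symbols, so its signal cannot be assigned to a gene. The share of all probe sets that passed in this test was not recorded, so the count is a description only.

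The list gene Maml2 has 2 probe sets, which differ in size of change. The brighter one had 0.27 and the other 0.70, with limma adjusted p of 0.0464 and 0.00704 over all probe sets. The 2 probe sets of Rbpj had -0.16 and -0.028, and neither passed.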
